A study of Mus musculus with 18 samples.

Results

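Kidneys of mice given STZ and a faecal transfer labelled AOS (STZ+AOS-FMT) were compared with kidneys of untreated control mice. The question was what differed from normal after the transfer. The 6 libraries, 3 in each group, were chosen by their treatment labels from 18 kidney RNA libraries in 6 groups of 3. All samples were kidneys of ICR mice aged 10 weeks. The control label names no agent. The STZ+AOS-FMT label joins STZ with AOS at 10 mg/kg and FMT, and STZ+control-FMT, used here for side-by-side values, joins STZ with FMT of control type. The other groups had AOS at 10 mg/kg (AOS), STZ (STZ), or both (STZ+AOS). Between the compared groups STZ, the transfer and its AOS label all differ, so their effects cannot be told apart in this comparison. STZ commonly stands for streptozotocin, which destroys pancreatic beta cells and so makes rodents diabetic, and FMT for the transplantation of faecal microbiota. The transfer label is read here as naming what the donors were given, which the labels do not spell out, nor do they spell out AOS. They also give no blood glucose, no time of day of tissue collection and no statement that each sample is another mouse, so a p-value reflects only how far these samples spread, which could be technical.

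Insulin normally raises the transcription of lipogenic enzymes, and its loss lowers them while fat breakdown and ketone production rise. The proximal tubule of the kidney takes filtered glucose, amino acids, phosphate and proteins back from the primary urine and burns mainly fatty acids to do so, and in diabetes it faces a raised glucose load. Tubule cells also run a circadian clock, in which activators such as ARNTL drive the genes of their own repressors.

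The values are FPKM, reads or fragments scaled to gene length and library size, in the authors' deposited table, and coordinates are those of mm10. A log2 difference is the mean of log2(FPKM + 1) in STZ+AOS-FMT minus that in control, shown ± 1 standard error. It was tested in limma on 12682 genes with a Benjamini-Hochberg adjusted p under 0.05 as the threshold. Between 11523 and 12408 genes reached 1 FPKM in the 6 libraries. Read totals are not known, so the depth behind a value cannot be given. In rarely detected genes, 18 to 41 in a library, values under 1.5 times the smallest detected value of the gene were taken as single reads. Their relative size was between 1 and 1.19 times the lowest over the 18 libraries. The limit of 1.5 times itself keeps this range narrow, so it cannot show that depth was alike.

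Control 3 stood apart from the other controls. Its median absolute log2 difference over the genes tested was 0.343 from control 1 and 0.325 from control 2, against 0.124 between controls 1 and 2 and 0.122 to 0.134 between the STZ+AOS-FMT libraries. From the STZ+AOS-FMT libraries control 3 differed by 0.203, 0.269 and 0.213, control 1 by 0.159 to 0.215 and control 2 by 0.158 to 0.195. Control 3 was thus nearer to the transfer libraries than to the other controls by this measure. In 5739 genes controls 1 and 2 lay apart from the STZ+AOS-FMT libraries. In 81.7% of these control 3 was closer to the STZ+AOS-FMT mean than to the mean of the other controls. This share includes 3835 genes in which control 3 lay beyond the STZ+AOS-FMT mean. Control 3 also carried transcripts of the adrenal cortex. Cyp11b1, which completes corticosterone synthesis in the adrenal gland, was at 118 FPKM in control 3, 0 in controls 1 and 2 and at most 0.03 in STZ+AOS-FMT. The tested differences below are therefore given with all controls and mostly also without control 3.

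With all 3 controls, 1 gene rose (0.00789% of those tested) and 13 fell (0.103%), while 757 genes were under an unadjusted p of 0.05. Without control 3, 8 genes rose (0.0631%) and 16 fell (0.126%), 1903 genes were under an unadjusted p of 0.05, and 11 genes were called in both fits. The median log2 difference of all genes was 0.01 with control 3 and 0.10 without it. The count of called genes was 5 to 24 when 1 of the 6 libraries was left out, with 7 without control 1, 6 without control 2, 24 without control 3, and 10, 5 and 5 without STZ+AOS-FMT 1, 2 and 3. Of the 14 called genes, 1 has a predicted symbol and is not described. Of the rest, 8 are spermatid genes, and the other 5 are Scd1, Acaa1a, Sumo3, Cdkl1 and Dhdh. When the 6 compared libraries were fitted alone, 5 genes passed (Prm1, Tnp2, Prm2, Tnp1 and Oaz3), all spermatid genes, and the calls of Scd1, Acaa1a, Sumo3, Cdkl1 and Dhdh were lost (limma adjusted p = 0.387, 0.485, 0.331, 0.387 and 0.492). The balance of directions changed with the libraries kept and their weights, with 95 genes higher and 50 lower without the libraries over 100 FPKM of Cyp11b1 (control 3 and STZ+AOS 1 and 3) and 1343 higher and 391 lower with a weight for each library. An exact permutation test of 3 against 3 cannot give a p under 0.1 and was not used.

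**Figure D1:**
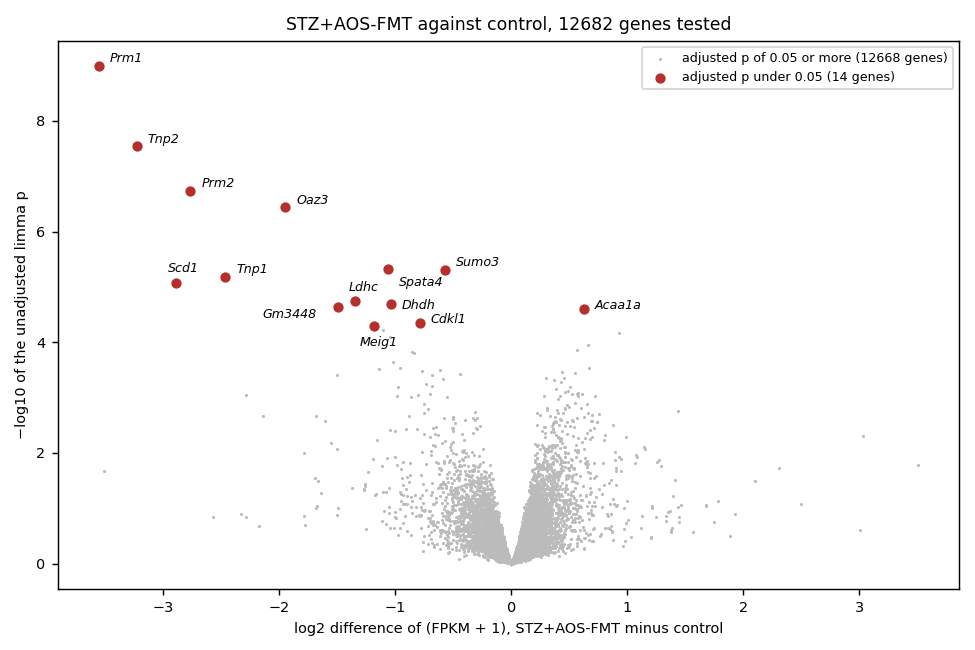
Each point is 1 of the 12682 genes tested, with the log2 difference of STZ+AOS-FMT minus control on the horizontal axis and minus log10 of the unadjusted limma p on the vertical axis. The called genes are marked, and 13 of the 14 lie on the lower side.

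Among the called genes, the lipid synthesis gene Scd1 had the largest fall of those with values above 0 in all 6 libraries. Scd1 (chromosome 19, 44394455 to 44407879), the stearoyl-CoA desaturase that puts a double bond into saturated fatty acids, was at 82.1, 56.02 and 27.8 FPKM in controls 1, 2 and 3 and at 8.35, 6.72 and 3.60 in the STZ+AOS-FMT libraries. The groups did not overlap, and control 3 was the lowest control. The mean FPKM of 6.22 ± 2.41 (SD, n = 3) was 11.3% of the control mean of 55.3 ± 27.1 (SD, n = 3), a log2 difference of -2.89 ± 0.44 (limma adjusted p = 0.0135). Without control 3 the difference was -3.31 (limma adjusted p = 0.00857). The call was lost without control 1 (limma adjusted p = 0.0743), control 2 (0.0864), STZ+AOS-FMT 2 (0.0628) or STZ+AOS-FMT 3 (0.106). Scd1 was also low in the other groups given STZ. Its mean FPKM was 13.2 ± 8.29 in STZ, 10.0 ± 3.36 in STZ+AOS and 6.68 ± 2.84 in STZ+control-FMT, against 40.6 ± 3.03 in AOS (SD, n = 3 each).

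The list of sterol and fatty acid synthesis genes had 19 tested members, 14 of them lower, with a median log2 difference of -0.17 (-0.24 without control 3) against 0.01 for all genes tested. Scd1 was the 1 member that passed. Members lay below the controls without overlap in 4 cases (4.57% of all genes tested did so) and above them in 0 (5.98%). Acly and Scd2 were among them and did not pass. The fatty acid synthase gene Fasn was at 28.1, 22.3 and 7 FPKM in control libraries and 8.51, 7.10 and 5.98 in STZ+AOS-FMT. Control 3 lay within the range of the transfer libraries there, and the log2 difference of -1.11 ± 0.42 did not pass (limma adjusted p = 0.644; 0.0602 without control 3). Acaca, the acetyl-CoA carboxylase that commits carbon to fatty acids, had the same arrangement of libraries. It was at 8.16, 6.32 and 3.50 FPKM in control libraries and 3.92, 3.12 and 3.87 in STZ+AOS-FMT. The log2 difference of -0.54 ± 0.21 did not pass (limma adjusted p = 0.681; 0.0602 without control 3).

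**Figure D2:**
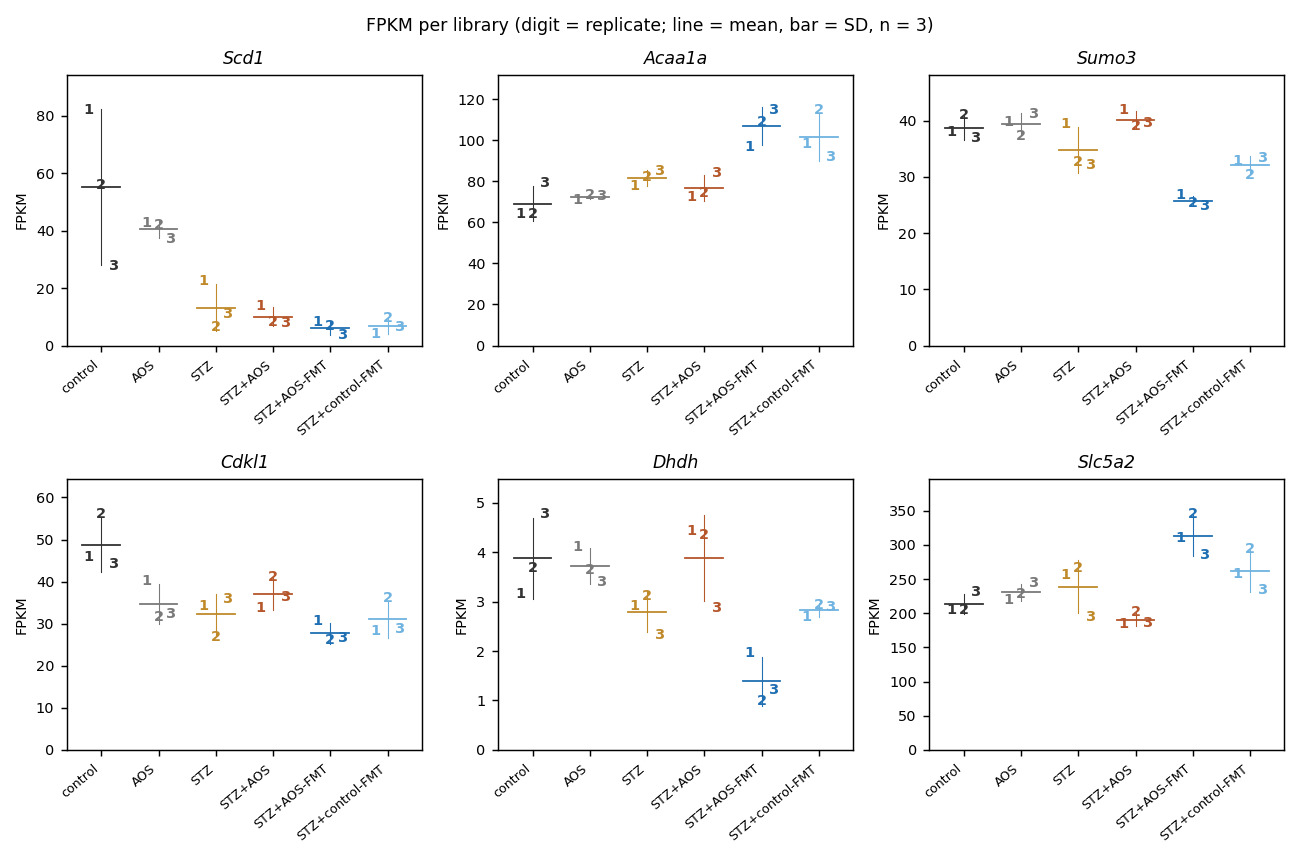
FPKM of Scd1, Acaa1a, Sumo3, Cdkl1, Dhdh and Slc5a2 in each library of the 6 groups, with digits for the replicate number, lines for group means and bars for 1 SD (n = 3). Scd1 was at 27.8 to 82.1 FPKM in control libraries and 3.60 to 8.35 in STZ+AOS-FMT, and Slc5a2 did not pass the test.

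Fatty acid oxidation gave the 1 gene that rose. Acaa1a (chromosome 9, 119339676 to 119350299), the peroxisomal thiolase of the last step of beta-oxidation, was at 64.02, 64.2 and 79.2 FPKM in control libraries and 96.6, 109 and 115 in STZ+AOS-FMT. All transfer libraries lay above all controls. The mean was 1.54 times that of the controls, with a log2 difference of 0.62 ± 0.10 (limma adjusted p = 0.027; 0.72 and 0.0111 without control 3). Leaving out control 1 (limma adjusted p = 0.169), control 2 (0.185), STZ+AOS-FMT 2 (0.165) or STZ+AOS-FMT 3 (0.211) ended the call. So did median-of-ratios rescaling (limma adjusted p = 0.0957), a filter at a mean of 5 FPKM (0.0739), a pseudocount of 5 (0.0548) and a fit of only the compared groups (0.485). The STZ+control-FMT libraries had a mean of 102 ± 11.8 FPKM and the STZ libraries one of 81.7 ± 3.89 (SD, n = 3 each). Acaa1a has the close paralog Acaa1b, and 290 of its exonic bases overlap Myd88 on the other strand. No strand setting is given in the sources used here, so reads of these genes may be shared. Acaa1b was at 124, 102 and 176 FPKM in control libraries and 188, 160 and 196 in STZ+AOS-FMT, which overlapped.

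Other genes of fat oxidation and ketone production did not pass. The list had 22 tested members, 13 of them higher, with a median log2 difference of 0.04. It was 0.18 without control 3, and -0.0039 when libraries were rescaled to their total without Kap. For all genes tested these medians were 0.01, 0.10 and -0.025. Members lay above the controls without overlap in 2 cases and below them in 2, against 5.98% and 4.57% of all genes tested. Besides Acaa1a, the transcription factor gene Ppara lay above the controls without overlap, at 8.90, 10.96 and 12.1 FPKM in control libraries and 14.9, 16.2 and 22.2 in STZ+AOS-FMT. Its log2 difference was 0.68 ± 0.21 (limma adjusted p = 0.426; 0.162 without control 3). The mitochondrial dehydrogenase genes Acadm and Acadvl lay below the controls without overlap and did not pass. Cyp4a10, an omega-hydroxylase induced by PPAR-alpha, was at 93.7, 77.6 and 831 FPKM in control libraries and 323, 226 and 364 in STZ+AOS-FMT. Controls 1 and 2 were under and control 3 was over the transfer libraries. It did not pass with or without control 3 (limma adjusted p = 0.214 without it).

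Glucose transporters of the tubule did not pass, though SGLT2 lay above the controls in every transfer library. Slc5a2 (chromosome 7, 128265657 to 128272430), the sodium-glucose cotransporter SGLT2 of the early proximal tubule, was at 204, 205 and 231 FPKM in control libraries and 310.4, 345 and 286 in STZ+AOS-FMT. The groups did not overlap, with a mean 1.47 times that of the controls and a log2 difference of 0.55 ± 0.12 (limma adjusted p = 0.148; 0.0698 without control 3). Slc5a2 shares 597 exonic bases with the opposite-strand gene BC017158. Slc2a2, the glucose exit transporter GLUT2, was at 33.05, 31.6 and 64.8 FPKM in control libraries and 64.4, 67.2 and 65.8 in STZ+AOS-FMT. Control 3 lay among the transfer libraries, and the log2 difference was 0.68 ± 0.28 with control 3 and 1.00 without it (limma adjusted p = 0.729 and 0.109). Of 9 tested glucose and fructose transport genes, 5 were higher, with a median log2 difference of 0.39 (0.61 without control 3), and 0 passed by limma with all controls or without control 3. At an unadjusted limma p under 0.05 there were 2 with all controls (757 of all 12682 genes) and 5 without control 3 (1903 of all genes).

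The polyol route turns glucose into sorbitol and fructose. Akr1b3, the aldose reductase, was at 76.1, 79.5 and 74.8 FPKM in control libraries and 134, 97.1 and 151 in STZ+AOS-FMT, and Sord, the next enzyme, was at 505, 526 and 487 in control libraries and 622, 673 and 757 in STZ+AOS-FMT. Both lay above the controls without overlap. Their log2 differences of 0.70 ± 0.44 and 0.43 ± 0.13 did not pass (limma adjusted p = 0.971 and 0.418, and 0.548 and 0.225 without control 3). Of 10 tested genes of polyol, fructose and inositol metabolism 7 were higher and 3 lower, and 0 passed in either limma fit. Members lay above the controls without overlap in 2 cases (5.98% of all genes tested did so) and below them in 0 (4.57%). The enzymes of glucose production followed no common order. Fbp1 overlapped between the groups, at 894, 961 and 1326 FPKM in control libraries and 1408, 1312 and 1453 in STZ+AOS-FMT, and so did G6pc. Of 8 tested gluconeogenesis genes 5 were higher and 0 passed in either limma fit. Above the controls without overlap lay 1 of them, where 5.98% of all genes tested did.

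Other transporters of the proximal tubule did not pass and lay on both sides of the controls. In the organic ion list 3 of 16 tested members lay above the controls without overlap, where 5.98% of all genes tested did. Among these was Slc22a5, a carnitine carrier that supplies fatty acid oxidation, at 74.1, 74.9 and 85.9 FPKM in control libraries and 97.95, 104 and 115 in STZ+AOS-FMT (limma adjusted p = 0.44; 0.151 without control 3). Among 14 amino acid transport genes, Slc7a9 and Slc36a1 lay above the controls and Slc3a1, Slc6a18 and Slc1a4 below them, against 5.98% and 4.57% of all genes. Slc7a9, the light chain of the cystine transporter, was at 51.6, 49.3 and 87.5 FPKM in control libraries and 91.8, 87.53 and 120.4 in STZ+AOS-FMT, where control 3 reached the edge of the transfer range (limma adjusted p = 0.413; 0.0513 without control 3). Slc6a18, a neutral amino acid transporter, was at 152, 133 and 120.2 FPKM in control libraries and 90.6, 83.7 and 87.4 in STZ+AOS-FMT, a log2 difference of -0.62 ± 0.13 (limma adjusted p = 0.148; 0.0602 without control 3). The endocytosis receptor gene Cubn and its partner Dab2 also lay above the controls without overlap and did not pass.

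Umod led the values that were lower in the thick ascending limb, the segment that takes up salt and makes the urinary protein uromodulin. Its FPKM was 693, 1032 and 898 in control libraries and 451, 307 and 430 in STZ+AOS-FMT. No library of one group reached the other, and the mean was 45.3% of that of the controls. The log2 difference of -1.14 ± 0.24 did not pass (limma adjusted p = 0.146; 0.107 without control 3). In STZ+control-FMT the mean was 565 ± 126 FPKM and in STZ 580 ± 63.9 (SD, n = 3 each). Of the 9 tested markers of this segment 8 were lower and 0 passed, with a median log2 difference of -0.49 (-0.38 without control 3). Under an unadjusted limma p of 0.05 were 3, where 757 of all 12682 genes were. Without control 3 there were 2, where 1903 of all genes were. Egf was the other member without overlap, which 4.57% of all genes tested showed on the lower side. Proximal tubule markers had 15 of 19 higher and a median of 0.19, which was -0.01 without control 3. In whole tissue, fewer cells of a segment and less RNA per cell cannot be told apart.

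**Figure D3:**
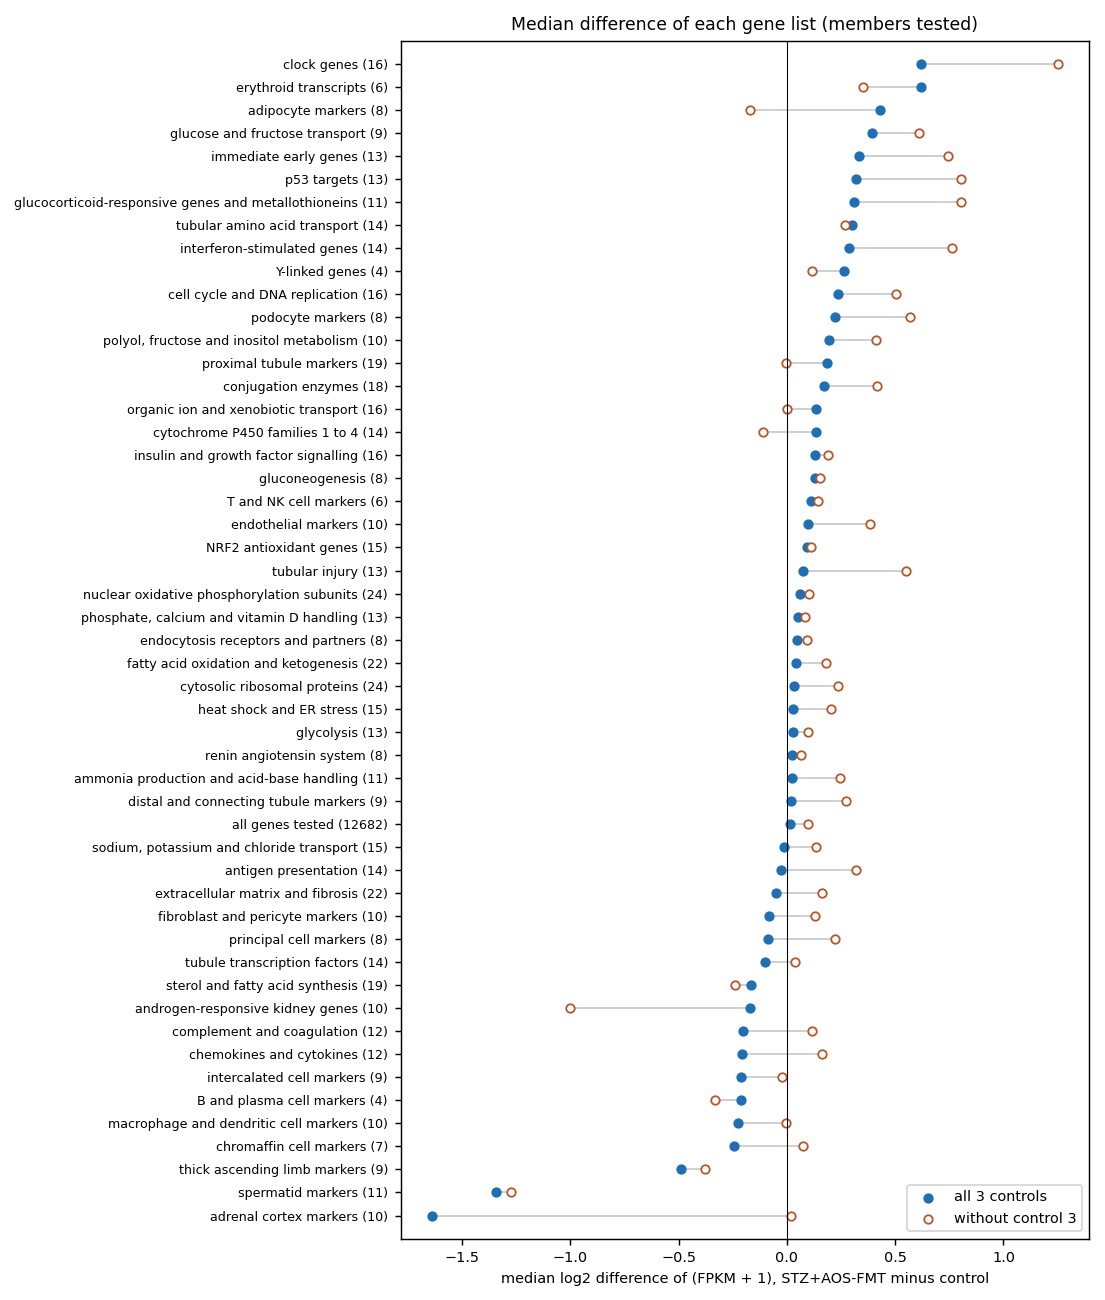
Median log2 difference of each list with at least 4 tested genes, with all 3 controls (filled) and without control 3 (open). The clock list moved from 0.62 to 1.25 and the adrenal cortex list from -1.64 to 0.02 when control 3 was left out.

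Sumo3, Cdkl1 and Dhdh fell, none of them a member of a list. Sumo3 (chromosome 10, 77606097 to 77618331), a small ubiquitin-like modifier that is conjugated to proteins, was at 37.9, 41.0 and 37.0 FPKM in control libraries and 26.7, 25.4 and 24.9 in STZ+AOS-FMT. The values were tight within both groups and far apart between them, at 66.5% of the control mean. The log2 difference was -0.57 ± 0.08 (limma adjusted p = 0.0105; 0.0141 without control 3). The call was lost without control 2 (limma adjusted p = 0.0831), STZ+AOS-FMT 2 (0.0628) or STZ+AOS-FMT 3 (0.0704), with median-of-ratios rescaling (0.187) and in a fit of only the compared groups (0.331). Its exons share 346 bases with the gene model Gm49325 on the same strand. In AOS the mean was 39.5 ± 1.98 FPKM, in STZ 34.7 ± 4.08, in STZ+AOS 40.1 ± 1.55 and in STZ+control-FMT 32.2 ± 1.57 (SD, n = 3 each), so all these group means lay between those of the compared groups or above the control mean.

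Cdkl1 (chromosome 12, 69746848 to 69791267), a kinase of the cyclin-dependent kinase-like family, was at 45.9, 56.02 and 44.2 FPKM in control libraries and 30.6, 26.01 and 26.5 in STZ+AOS-FMT. The groups did not overlap, and the log2 difference was -0.79 ± 0.14 (limma adjusted p = 0.0434; 0.0383 without control 3). Without any 1 of the other 5 libraries the call was lost, with limma adjusted p-values of 0.109 and 0.218 without controls 1 and 2 and of 0.0742, 0.243 and 0.227 without STZ+AOS-FMT 1, 2 and 3. The means of the other 4 groups, 31.0 to 37.0 FPKM, were also under the controls. Dhdh (chromosome 7, 45470987 to 45488805), a dihydrodiol dehydrogenase, was at 3.16, 3.69 and 4.77 FPKM in control libraries and 1.95, 0.98 and 1.22 in STZ+AOS-FMT. These groups were separate too, with a log2 difference of -1.04 ± 0.17 (limma adjusted p = 0.0254). That call was lost without control 2 (limma adjusted p = 0.0864), control 3 (0.0513), STZ+AOS-FMT 2 (0.165) or STZ+AOS-FMT 3 (0.148). Dhdh overlaps Tulp2 and Gm45808 in 387 and 597 exonic bases, and Cdkl1 overlaps 4930512B01Rik in 417.

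Several genes with higher values were next by unadjusted p without passing. Tln2 (chromosome 9, 67217087 to 67559703), the adhesion protein talin 2, came nearest, at 11.4, 14.4 and 17.8 FPKM in control libraries and 29.0, 23.9 and 31.9 in STZ+AOS-FMT. Its log2 difference was 0.93 ± 0.17 (limma adjusted p = 0.0543), and without control 3 it passed at 1.08 (limma adjusted p = 0.0172). It also passed after quantile normalization (limma adjusted p = 0.017), median-of-ratios rescaling (0.00543) or rescaling without Kap (0.0253), and with no filter (0.0378). Tln2 did not pass without control 1 (limma adjusted p = 0.284), control 2 (0.21), or STZ+AOS-FMT 1 (0.226), 2 (0.0864) or 3 (0.321). Nor did it with only the compared groups fitted (0.485) or a filter at a mean of 5 FPKM (0.125). Pseudocounts of 0.1 and 5 gave limma adjusted p-values of 0.056 and 0.0574. Il15, a cytokine that sustains natural killer and memory T cells, was at 7.60, 8.96 and 9.39 FPKM in control libraries and 12.4, 13.3 and 14.1 in STZ+AOS-FMT (limma adjusted p = 0.0879; 0.0541 without control 3). Adra2b (an alpha-2 adrenoceptor), Slc25a42 (a mitochondrial coenzyme A carrier) and Slc12a7 (a potassium-chloride cotransporter) had log2 differences of 0.66, 0.67 and 0.43, with limma adjusted p-values of 0.0735, 0.146 and 0.148 (0.0688, 0.0854 and 0.109 without control 3). Slc5a2, described above, was another.

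Csf1r, the receptor that macrophages need for survival, was lower in all transfer libraries than in any control. It was at 19.3, 16.5 and 14.9 FPKM in control libraries and 9.91, 8.23 and 8.85 in STZ+AOS-FMT. The log2 difference was -0.84 ± 0.17 and did not pass (limma adjusted p = 0.0903; 0.0602 without control 3). Adgre1, which encodes the macrophage marker F4/80, overlapped between the groups at 1.53, 1.41 and 2.13 against 1.79, 1.41 and 1.27 FPKM. Of 10 tested macrophage and dendritic cell markers 8 were lower and 0 passed, and 1 was under an unadjusted limma p of 0.05, where 757 of all 12682 genes were. The markers had a median log2 difference of -0.23, which was 0.00 without control 3.

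Clock genes differed most between controls 1 and 2 and the transfer libraries, and control 3 was mostly with the latter. Dbp (a clock output factor that binds D-box elements) was at 2.76, 6.90 and 90.6 FPKM in control libraries and 114, 112 and 113 in STZ+AOS-FMT. Arntl, which encodes the activator BMAL1, was at 12.5, 10.05 and 2.71 FPKM in control libraries and 1.49, 1.82 and 1.39 in STZ+AOS-FMT. Npas2, a partner of ARNTL, was at 10.2, 6.71 and 1.60 FPKM in control libraries and 1.04, 1.42 and 0.62 in STZ+AOS-FMT. In all 3 genes control 3 lay between the other controls and the transfer libraries, close to the latter, and the groups did not overlap. The log2 differences were 3.03 ± 0.91 for Dbp, -1.68 ± 0.45 for Arntl and -1.60 ± 0.44 for Npas2, and 0 of the 3 passed (limma adjusted p = 0.405, 0.321 and 0.321). Without control 3 they were 4.38, -2.26 and -2.22 and passed (limma adjusted p = 0.0158, 0.0345 and 0.0172).

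Ciart, a repressor of the clock activators, was at 0.33, 0.44 and 18.01 FPKM in control libraries and 14.2, 16.9 and 15.2 in STZ+AOS-FMT, with control 3 above all transfer libraries. Nr1d2, a nuclear receptor that represses Arntl, was at 7.14, 10.4 and 30.4 FPKM in control libraries and 29.2, 28.03 and 35.4 in STZ+AOS-FMT. It passed without control 3 (log2 difference 1.72, limma adjusted p = 0.0172) and not with it (limma adjusted p = 0.534). Tef, a relative of Dbp, was at 40.6, 42.2 and 97.8 FPKM in control libraries and 102, 104 and 116 in STZ+AOS-FMT. Cry1, a repressor, was at 3.84, 2.55 and 2.79 in control libraries and 1.11, 1.13 and 3.21 in STZ+AOS-FMT and overlapped. Of the 16 clock genes tested, 11 were higher, with a median log2 difference of 0.62 (1.25 without control 3) against 0.01 (0.10) for all genes tested. With all controls 0 of the 16 passed and 11 were under an unadjusted p of 0.05, where 757 of all 12682 genes were, and without control 3 Dbp, Nr1d2, Arntl and Npas2 passed and 14 were under that p, where 1903 of all genes were. Groups did not overlap for Dbp, Tef and Hlf on the higher side and for Arntl, Npas2 and Clock on the lower, against 5.98% and 4.57% of all genes. The STZ+control-FMT libraries lay between for Dbp, with a mean of 62.1 ± 14.2 FPKM, and for Arntl, with 4.22 ± 1.5 (SD, n = 3 each). Against STZ+control-FMT the log2 differences were 0.87 for Dbp and -0.99 for Arntl (limma p unadjusted 0.35 and 0.046).

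**Figure D4:**
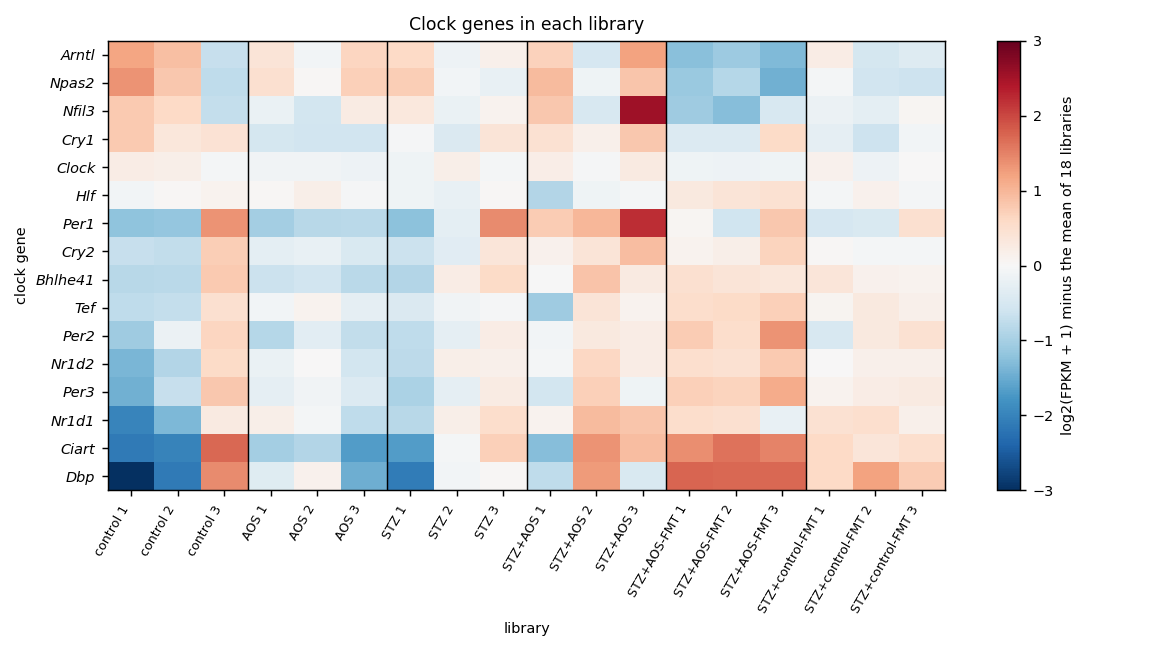
Heat map of 16 clock genes in 18 libraries, as log2(FPKM + 1) minus the mean of the gene over the 18 libraries. Control 3 has the colours of the STZ+AOS-FMT libraries for Dbp, at 90.6 against 112 to 114 FPKM, while controls 1 and 2 have the opposite ones at 2.76 and 6.90.

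ARNTL and its partners bind the E-box, whose letters are CACGTG and read the same on both strands. The promoter windows below, from RefSeq on GRCm38.p6, run from 250 bases before to 50 bases after the annotated start and are shown because they hold this motif, with its letters in capitals. They are those of Ciart (chr3:95882179-95882478, minus strand), Tef (chr15:81802423-81802722, plus strand) and Cry1 (chr10:85185005-85185304, minus strand).
Ciart: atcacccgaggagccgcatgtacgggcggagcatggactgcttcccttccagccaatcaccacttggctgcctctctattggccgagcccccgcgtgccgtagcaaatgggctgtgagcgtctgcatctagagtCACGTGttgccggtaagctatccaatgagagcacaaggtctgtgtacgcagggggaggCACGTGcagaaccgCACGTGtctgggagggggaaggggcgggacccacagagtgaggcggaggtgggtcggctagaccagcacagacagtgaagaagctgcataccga
Tef: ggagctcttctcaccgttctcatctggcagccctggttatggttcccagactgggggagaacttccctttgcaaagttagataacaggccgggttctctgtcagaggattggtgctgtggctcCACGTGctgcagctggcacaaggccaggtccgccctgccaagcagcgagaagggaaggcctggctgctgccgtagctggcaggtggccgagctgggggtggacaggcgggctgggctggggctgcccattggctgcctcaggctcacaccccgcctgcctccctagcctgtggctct
Cry1: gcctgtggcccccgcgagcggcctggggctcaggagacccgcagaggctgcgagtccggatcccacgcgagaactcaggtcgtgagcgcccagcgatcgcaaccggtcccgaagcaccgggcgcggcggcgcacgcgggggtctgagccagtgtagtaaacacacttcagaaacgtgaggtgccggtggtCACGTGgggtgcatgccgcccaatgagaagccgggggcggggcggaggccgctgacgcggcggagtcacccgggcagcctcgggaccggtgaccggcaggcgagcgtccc
Ciart has 3 matches, whose first bases lie at -116, -58 and -44 from the start, Tef 1 at -127 in the window shown and 1 at -138 in its other window (chr15:81811164-81811463), and Cry1 1 at -60. Per1 and Bhlhe41 have 1 each, at -166 and -153. Of the 15 clock genes with a window, 5 (33.3%) held the motif in at least 1 window, against 8.09% of 27025 genes and 7.15% of 32851 windows. Dbp and Arntl have no match in their windows. The 5 genes with a match differed in their values, since Ciart and Tef were higher in every STZ+AOS-FMT library than in controls 1 and 2 while Cry1 overlapped, and a match describes the letters of the window and nothing more.

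Genes of tubular injury and growth arrest turned on control 3. Havcr1, which encodes the injury marker KIM-1, was at 2.03, 1.85 and 19.4 FPKM in control libraries and 2.91, 2.77 and 2.91 in STZ+AOS-FMT. Cdkn1a, a p53 target encoding the cell cycle inhibitor p21, was at 14.9, 7.11 and 82.6 FPKM in control libraries and 31.8, 25.03 and 23.4 in STZ+AOS-FMT. In both genes the transfer libraries lay above controls 1 and 2 and below control 3. Of 13 tested injury genes 7 were higher with all controls, at a median log2 difference of 0.07, and 13 without control 3, at 0.55. The 13 p53 targets were all higher, at a median of 0.32, or 0.81 without control 3. In these lists 0 genes passed in either limma fit. At an unadjusted p under 0.05 there were 0 with all controls, where 757 of all 12682 genes were. Without control 3 there were 8 p53 targets and 0 injury genes, where 1903 of all genes were. Of all genes tested, 6820 were higher with all controls and 8820 without control 3.

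Androgen-responsive genes of the tubule had the reverse order. Kap, the kidney androgen-regulated protein, was at 150876, 145522 and 15798 FPKM in control libraries and 55167, 74117 and 54474 in STZ+AOS-FMT. The transfer libraries lay between control 3 and the other controls. Of 10 tested members 7 were lower with all controls, at a median log2 difference of -0.17, and 10 without control 3, at -1.0. In limma 0 passed in either fit, with 0 and 1 under an unadjusted p of 0.05, against 757 and 1903 of all 12682 genes. Odc1, the rate-limiting enzyme of polyamine synthesis, was at 1153, 948 and 267 FPKM in control libraries and 426, 759 and 371 in STZ+AOS-FMT. Interferon-stimulated genes were higher in 12 of 14 (median 0.29, or 0.76 without control 3), and extracellular matrix genes in 7 of 22 (median -0.05, or 0.16). In both lists 0 genes passed in either limma fit and 0 were under an unadjusted p of 0.05 with all controls, while 1 interferon gene was without control 3. Col1a1 overlapped at 4.78, 4.06 and 4.12 against 5.63, 3.19 and 3.57 FPKM.

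Spermatid transcripts differed between the groups, while adrenal transcripts followed control 3 and adipocyte transcripts overlapped. The spermatid genes Prm1, Prm2 and Tnp2 lie side by side on chromosome 16 (10787936 to 10805839) and package sperm DNA. Prm1 was at 9.07, 9.44 and 14.5 FPKM in control libraries and listed at 0 in all STZ+AOS-FMT libraries. Prm2 was at 4.99, 5.70 and 6.86, and Tnp2 at 7.15, 7.33 and 11.1, in the controls, and both were likewise listed at 0. Of 12 spermatid markers 10 were listed at 0 in all 3 transfer libraries, and their summed FPKM was 36.8 to 51.4 in control libraries and 0.17 to 0.97 in STZ+AOS-FMT. It was 29.2 to 100.02 in the STZ libraries and 0.07 to 1.51 in the other 9 libraries. Of the 11 tested, 11 were lower without overlap (4.57% of all genes were) and 8 passed (0.103% of all genes passed as lower). The 8 were Prm1, Tnp2, Prm2, Tnp1, Oaz3, Ldhc, Meig1 and Spata4. Their log2 differences were -3.56, -3.23, -2.77, -2.47, -1.95, -1.34, -1.19 and -1.07, sizes that depend on the pseudocount. The limma adjusted p-values were 1.27e-05, 1.81e-04, 7.68e-04, 0.0118, 0.00116, 0.0254, 0.0466 and 0.0105. These genes met the filter of 1 FPKM in 3 libraries only through the control and STZ libraries, where they were high. A gene listed at 0 in a whole group also adds no spread from that group to the test. The list was made with these values known, and its part in the other results was not tested.

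The calls of Prm1, Tnp2, Prm2 and Oaz3 were kept without any 1 of the 6 libraries. Ldhc was lost without each of them, with limma adjusted p-values of 0.0594, 0.0864 and 0.0513 without controls 1, 2 and 3 and of 0.101, 0.122 and 0.115 without STZ+AOS-FMT 1, 2 and 3. Tnp1 and Spata4 were lost without control 1 (limma adjusted p = 0.0649 and 0.0618), STZ+AOS-FMT 2 (0.0628 for both) or STZ+AOS-FMT 3 (0.0704 for both), and Tnp1 also without STZ+AOS-FMT 1 (0.0518). Meig1 was lost without control 1 (limma adjusted p = 0.233), control 2 (0.187), STZ+AOS-FMT 1 (0.234) or STZ+AOS-FMT 3 (0.262). With a pseudocount of 5, the calls of Prm1 and Tnp2 were kept (limma adjusted p = 0.00578 and 0.0321). The other called spermatid genes lost theirs. Their limma adjusted p-values were 0.0867 (Prm2), 0.282 (Tnp1), 0.0548 (Oaz3), 0.191 (Ldhc), 0.0555 (Meig1) and 0.0614 (Spata4). Quantile normalization also ended the calls of Ldhc and Meig1 (limma adjusted p = 0.0913 and 0.195). Oaz3 shares 2255 exonic bases with Tdrkh on the other strand. Adrenal cortex markers followed control 3, with a summed FPKM of 8.13, 4.95 and 989 in control libraries and 9.98, 5.23 and 6.05 in STZ+AOS-FMT. Adipocyte markers summed to 569, 310.5 and 156 FPKM in control libraries and 651, 136 and 710.3 in STZ+AOS-FMT, and in limma 0 of 8 passed or were under an unadjusted p of 0.05.

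**Figure D5:**
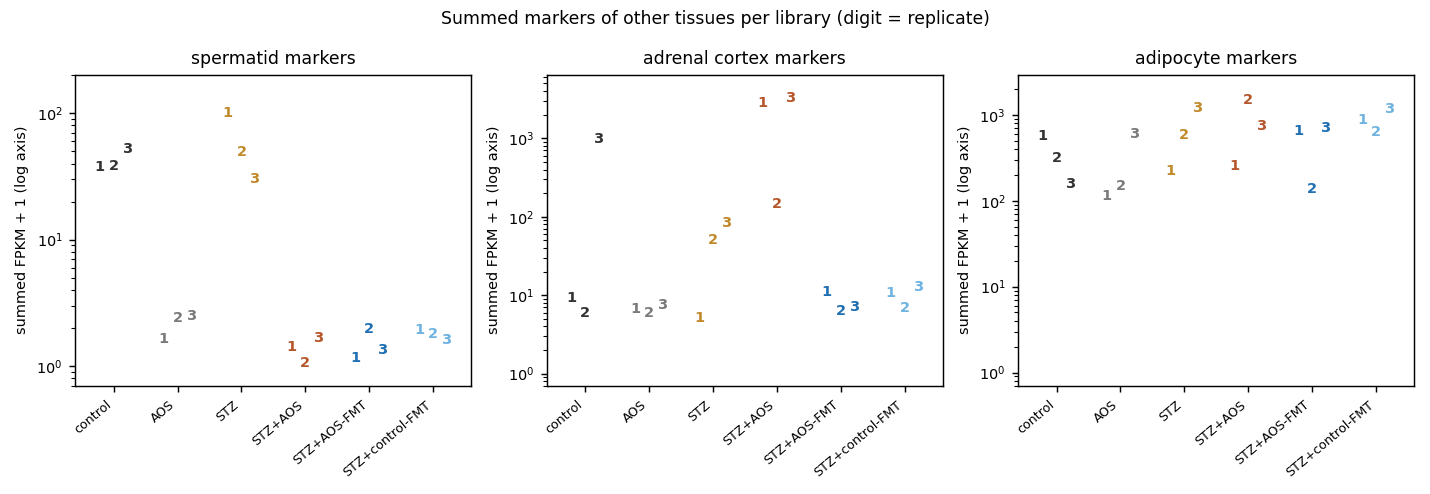
Summed FPKM + 1 of spermatid, adrenal cortex and adipocyte markers in each of 18 libraries, on a log axis. Spermatid markers sum to 36.8 to 51.4 in control libraries and under 1 FPKM in the STZ+AOS-FMT libraries, and adrenal cortex markers reach 989 FPKM in control 3, and 2786 and 3249 FPKM in STZ+AOS 1 and 3.

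The STZ+control-FMT libraries allow a direct test of the transfer label within STZ. Between STZ+AOS-FMT and STZ+control-FMT, 0 of 12682 genes passed (0%), with 209 under an unadjusted p of 0.05 and a lowest limma adjusted p of 1. Of the called genes with levels in both groups, Scd1 and Acaa1a had log2 differences of -0.08 and 0.07 from STZ+control-FMT. Those of Dhdh and Sumo3 were -0.71 and -0.31 (limma p unadjusted 0.000838 and 0.00175). Il15 differed by 0.47 (limma p unadjusted 0.000801), with the STZ+control-FMT mean at 9.32 ± 0.627 FPKM (SD, n = 3), near the controls. Their limma adjusted p was 1 in each case.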

How the data were processed

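The table deposited by the authors holds FPKM for 19545 entries, 18990 of which matched GENCODE mouse release 21 for coordinates. No label or header names the unit. It was read from the values, whose length-weighted sum varied by 0.938% over the libraries and whose plain sum varied by 5.47%. Bowtie 0.12.2 and mm10 are named in the submitters' processing notes, and the counting tool is not given in the sources used here. A gene was tested if 3 or more libraries reached 1 FPKM, which held for 12682. Values of log2(FPKM + 1) of all 18 libraries entered 1 model of the 6 group means, fitted with limma 3.58.1 under R 4.3.3 with its trend and robust options, after tests on simulated data. Groups came from the treatment labels. Named genes were those past an adjusted p of 0.05 without overlap, whose larger group mean reached 1 FPKM, without a predicted symbol, up to 15 a direction. Where fewer than 5 passed, the next by p filled up to 8, and list members were added. The members and the 51 lists were chosen with earlier results of these data known. Alternatives were other scalings, filters, pseudocounts, weights and groups fitted, and libraries left out. A few genes that the naming rule or the lists include are not reported here.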

Additional observations from a re-analysis of the deposited data

How the results depend on the processing

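The 14 called genes became 62 with no filter, 2 at a mean of at least 5 FPKM, 4 with a pseudocount of 5, 5 (spermatid genes) with only the groups compared in the fit, and 145 (95 higher, 50 lower) without the libraries over 100 FPKM of Cyp11b1. Weights for each library gave 1734 (1343 higher, 391 lower), in a weighting that stopped before it converged and set control 3 at 0.166 against 1.35 to 2.61 for the other 5. Leaving out 1 library gave 5 to 24. The 10 called list members became 1 at the higher mean, 3 with the larger pseudocount, 5 with only the groups compared, 152 with weights and 31 without the Cyp11b1 libraries, and 4 to 13 when 1 library was left out. Why these counts changed was not tested. Against STZ+control-FMT 0 genes passed under all alternatives run. After removal of group means, same-numbered libraries correlated at -0.18, 0.18 and 0.18, and differently numbered ones at -0.35 to 0.35. With 3 libraries in each group these values cannot decide whether the numbers pair the samples. A fit with the replicate block called 15 genes and 9 list members. For 52 genes, called and not called, 920 alternative values left the status (called or not) unchanged in 774. A call was lost in 67 and gained in 79, and the direction reversed in 0. Unknown depth limits genes near 0 FPKM.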
